A study of Mus musculus with 14 samples.

Results

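C2C12 cells, a mouse line of skeletal muscle myoblasts, were compared after 7 days in differentiation medium DM3 and at day 0 in growth medium. DM3 held 2% horse serum together with a cocktail known for driving precursor cells to fat: 1 µg/ml insulin, 0.5 mM IBMX (a phosphodiesterase inhibitor), 0.5 µM dexamethasone (a synthetic glucocorticoid) and 2 µM rosiglitazone (an agonist of the receptor PPAR-gamma). Growth medium held 20% fetal calf serum (FCS) and no cocktail. The 4 libraries were chosen by their labels alone, the pair of DM3 at day 7 and the pair of day 0, out of 14 libraries of RNA sequencing in 7 groups of 2. Below, DM3 without a day means DM3 at day 7. 3 like groups served for comparison: DM1 at day 7 (2% horse serum alone), DM2 at day 7 (10% FCS with the same cocktail) and DM3 at day 2. DM1 and DM2 without a day likewise mean day 7, and 2 further groups (DM1 and DM2 at day 2) enter only where a gene was set against each of the 6 other groups. All groups are of 1 cell line, media were renewed every other day per the labels, and the labels number the replicates without saying that they were separate cultures. The p-values therefore rest on the spread among these libraries alone, and that spread may be technical.

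The labels were checked against markers of differentiated muscle in CPM, counts scaled to 1e6 per library. Skeletal alpha-actin (Acta1) had 13398 and 12529 CPM in DM3, against 3.49 and 3.54 CPM at day 0, and the embryonic myosin heavy chain (Myh3) had 3128 and 3273 CPM in DM3, against 0.628 and 0.511 CPM at day 0. Ankrd2, a stretch-responsive protein of the sarcomere, had 232 and 188 CPM in DM3, against 0 and 0.0681 CPM at day 0. The 3 markers were high in both DM3 libraries and at or near 0 in both day 0 libraries. Both groups expressed the muscle lineage genes Myod1 (72.8 and 64.7 CPM in DM3, against 146 and 128 CPM at day 0) and Des (2073 and 2021 CPM in DM3, against 931 and 796 CPM at day 0).

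Myoblasts that leave the cell cycle turn on myogenin, fuse with each other and build sarcomeres, the repeating units of thick myosin filaments and thin actin filaments that contract muscle. The transcription factors MyoD, Myf5, myogenin and MRF4 bind E-boxes in muscle genes, and they act with factors of the MEF2 family and with SRF, which binds CArG boxes. Cell cycle genes of mitosis are known to be held down in resting cells by complexes that bind CHR elements, often beside CCAAT boxes. Bulk RNA does not tell fewer cells of a kind from less RNA per cell, which holds for every level below.

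Promoter sequences of 2 sarcomere genes that rose and of 2 mitosis genes that fell are shown to make these elements visible. Each is the 250 bases before the annotated start, 5′ to 3′ on the gene's strand, from RefSeq on GRCm38.p6, with the elements found in capitals. Acta1, skeletal alpha-actin, lies on the minus strand (chr8:123894776-123895025), with a CArG box 73 bases and the E-box CAGCTG 221 bases before the start. Mylpf, the fast regulatory myosin light chain, lies on the plus strand (chr7:127211358-127211607), with the E-box CAGCTG 51 bases before the start. Mki67, the proliferation antigen Ki-67, lies on the minus strand (chr7:135716380-135716629), with the CHR letters TTTGAA 116 and 98 bases and CCAAT boxes, 1 of them on the opposite strand, 188, 166 and 141 bases before the start. Cdc20, an activator of the ubiquitin ligase that ends mitosis, lies on the minus strand (chr4:118437344-118437593), with TTTGAA 18 bases and CCAAT 53 and 8 bases before the start.
Acta1: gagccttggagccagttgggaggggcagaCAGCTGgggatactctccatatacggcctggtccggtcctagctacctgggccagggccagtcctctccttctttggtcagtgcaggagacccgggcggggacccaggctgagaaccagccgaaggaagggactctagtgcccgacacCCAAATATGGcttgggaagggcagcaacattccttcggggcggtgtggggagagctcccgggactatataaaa
Mylpf: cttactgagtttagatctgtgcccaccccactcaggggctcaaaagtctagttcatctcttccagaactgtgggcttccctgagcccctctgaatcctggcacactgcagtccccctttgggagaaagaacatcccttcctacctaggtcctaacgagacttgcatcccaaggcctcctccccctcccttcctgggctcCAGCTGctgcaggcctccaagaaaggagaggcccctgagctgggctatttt
Mki67: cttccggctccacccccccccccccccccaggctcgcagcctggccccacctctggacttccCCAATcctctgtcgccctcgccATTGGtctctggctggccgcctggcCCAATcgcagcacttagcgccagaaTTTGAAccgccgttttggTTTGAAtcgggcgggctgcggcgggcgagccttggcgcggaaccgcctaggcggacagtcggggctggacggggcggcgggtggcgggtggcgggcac
Cdc20: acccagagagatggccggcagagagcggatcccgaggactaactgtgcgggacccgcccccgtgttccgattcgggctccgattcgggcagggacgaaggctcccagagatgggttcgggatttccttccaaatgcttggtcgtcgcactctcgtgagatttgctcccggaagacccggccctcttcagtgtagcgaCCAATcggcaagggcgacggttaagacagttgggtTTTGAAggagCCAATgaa

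Both strands of all promoter windows were searched for CAGCTG, the MEF2 box, the CArG box, TTTGAA and CCAAT, which do not overlap one another in the windows printed. Among 17 thick filament genes with a promoter in the table, of 18, 41.2% held CAGCTG, 23.5% a MEF2 box, 11.8% a CArG box, 0% TTTGAA and 29.4% CCAAT. Among 16 mitosis genes, of 20, the shares were 12.5% for CAGCTG, 6.25% for a MEF2 box, 0% for a CArG box, 37.5% for TTTGAA and 81.2% for CCAAT. Of all 27025 genes with a promoter window 14.7% held CAGCTG, 3.42% a MEF2 box, 1.62% a CArG box, 18.3% TTTGAA and 37.5% CCAAT. These shares describe the sequences, and a match is not a bound site.

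The 4 libraries were of like depth, with 26557864 and 27170321 expected counts (RSEM's estimated counts per gene, which need not be whole) in DM3 and 28450220 and 27723977 at day 0. Over all 14 libraries totals ran between 21907617 and 29784885, and the genes with at least 1 count between 17750 and 21111. Levels are given in CPM (each library's counts brought to a TMM-scaled total of 1e6) for both libraries of a group. The DM3 libraries were closer to each other than the day 0 libraries were: the biological coefficient of variation was 8.38% in DM3 and 20.9% at day 0. It was highest, at 46.6%, in DM3 at day 2. Processed pseudogenes took 2.50 and 2.34% of counts in DM3 and 1.28 and 2.51% at day 0, so that the first day 0 library stood apart. In DM3 at day 2 they took 2.34 and 0.584%, and the second library there held the fewest genes, 17750. The 10 leading genes took 12.3 and 11.8% of counts in DM3 and 5.77 and 5.64% at day 0. Mitochondrial mRNA took 5.44 and 5.01% in DM3 and 2.36 and 2.50% at day 0, and long intergenic RNAs 4.64 and 4.93% in DM3 and 0.711 and 0.596% at day 0. Single long RNAs can weigh heavily in such shares. Gm42418, described below, alone took 1.61 and 2.08% of all counts in DM3 and 0.287 and 0.138% at day 0.

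Of 15973 genes tested with edgeR's quasi-likelihood test (Benjamini-Hochberg adjusted p under 0.05 over all of them), 9428 were called, which is 59.0%: 4613 (28.9%) were higher and 4815 (30.1%) lower in DM3. A change of at least 2-fold was called for 2240 genes (14%) higher and 2396 (15%) lower. Among the larger changes 595 genes were at least 10-fold higher and 420 at least 10-fold lower, and 182 at least 100-fold higher and 57 at least 100-fold lower. By gene type, 31.7% of 13065 protein-coding genes were higher and 35.2% lower, whereas of 367 long intergenic RNAs 31.3% were higher and 15.5% lower, and of 248 antisense genes 37.1% were higher and 12.1% lower. The median log2 fold change of all genes was 0.03 and the quartiles were -0.67 and 0.72. Scaling by library totals alone shifted that median to -0.18 and turned the split to 3577 genes higher and 6101 lower. All counts of list members below are to be read against 28.9% higher and 30.1% lower. Where libraries of the groups are said below not to overlap, this describes the called genes named there and is no further support. The share of all genes tested that separate in this way is not given.

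**Figure D1:**
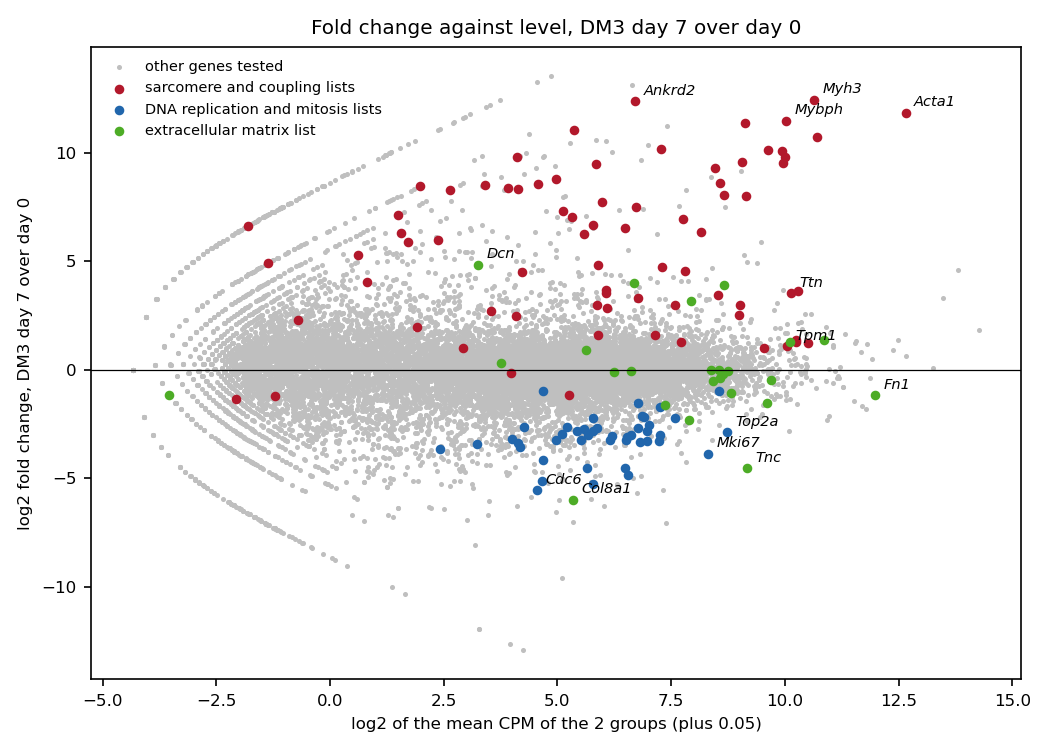
Log2 fold change of DM3 at day 7 over day 0 for each of 15973 genes tested (y axis) against the log2 mean CPM of the 2 groups (x axis). Members of the sarcomere and coupling lists (red) spread up to Myh3, Ankrd2 and Acta1 above 11, and members of the DNA replication and mitosis lists (blue) lie below 0.

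**Figure D2:**
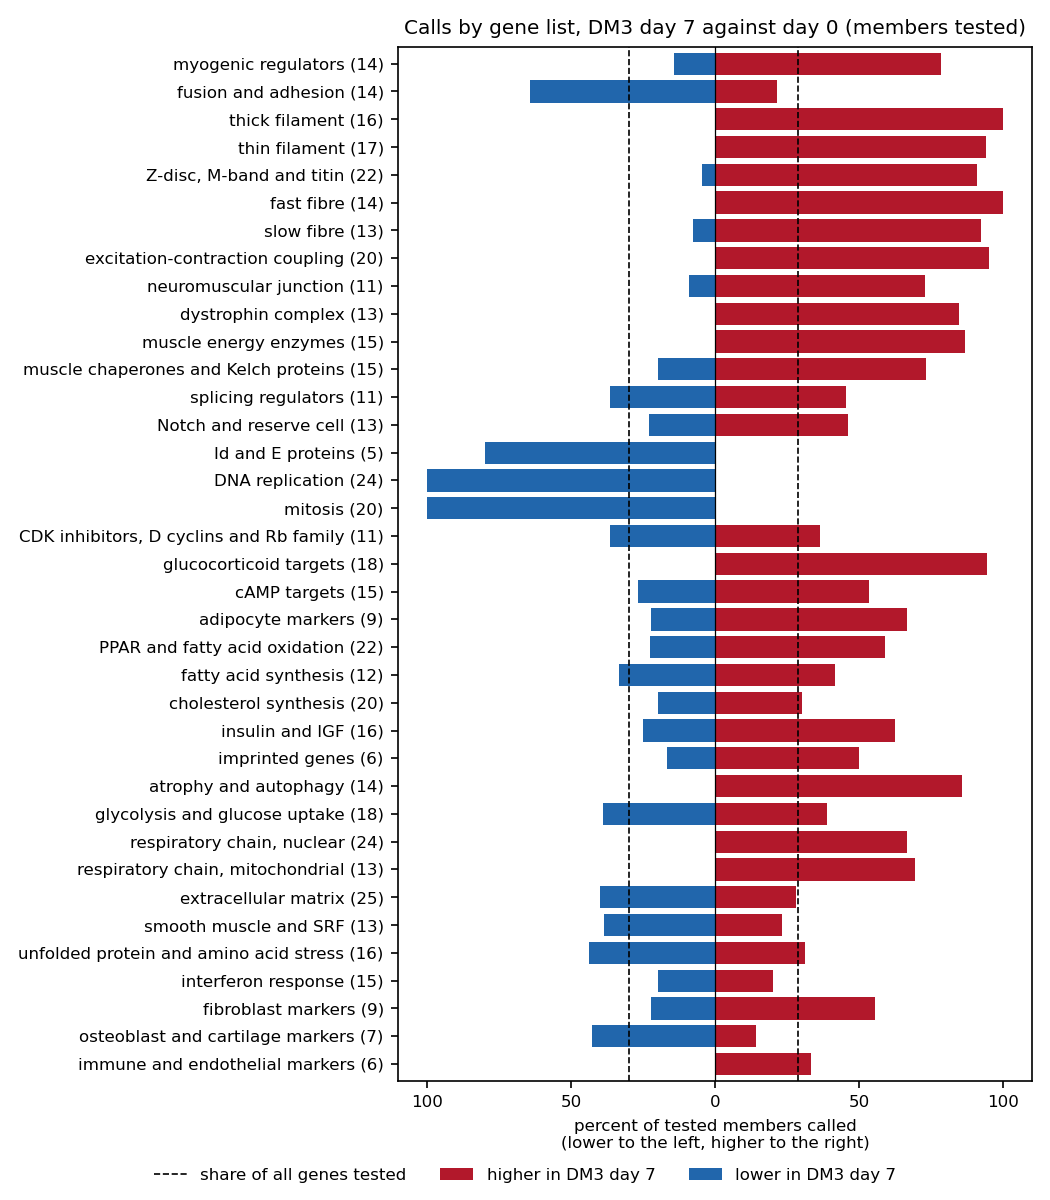
Percent of tested members of 37 gene lists called higher (right) or lower (left) in DM3 at day 7 than at day 0, with the number tested in brackets and the shares of all genes tested, 28.9% higher and 30.1% lower, as dashed lines. Sarcomere, coupling and glucocorticoid lists reach far to the right, and the DNA replication and mitosis bars run to 100% on the left.

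Of 14 myogenic regulators 11 were higher in DM3 and 2 lower, with a median log2 fold change of 1.87. Myogenin (Myog, chr1:134289989-134292548), the factor that switches myoblasts to terminal differentiation, had 1110 and 995 CPM in DM3, against 1.74 and 1.87 CPM at day 0 (log2 fold change 9.18, SE 0.196, adjusted p = 1.13e-11). The groups were far apart, and the 2 libraries of each lay close together. Its partners of the MEF2 family rose too: Mef2c had 102 and 94.4 CPM in DM3, against 17.4 and 19 CPM at day 0, Mef2a had 455 and 459 CPM in DM3, against 99.1 and 95.8 CPM at day 0, and Mef2d was 2.81-fold higher. Smyd1, a methyltransferase and chaperone partner of myosin, was 11.2-fold higher, and Tead4, a factor that binds muscle promoters, 6.90-fold.

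The myoblast factors parted. Myod1, which commits cells to the muscle lineage, fell to 72.8 and 64.7 CPM in DM3, against 146 and 128 CPM at day 0 (log2 fold change -0.99, SE 0.163, adjusted p = 0.000266). Myf5, its close relative, went the other way, with 207 and 193 CPM in DM3, against 46.1 and 42.0 CPM at day 0 (4.55-fold higher). Vgll2, a cofactor of TEAD proteins, fell to 11.3 and 9.77 CPM in DM3, against 62.0 and 54.6 CPM at day 0. All 3 pairs of libraries were clear of each other. Against DM1, without the cocktail, Myod1 was higher in DM3 (log2 fold change 1.05, adjusted p = 0.000304). Inhibitors of these factors were low: the Id proteins bind E proteins and keep MyoD off DNA, and Id2 had 4.14 and 4.19 CPM in DM3, against 49.7 and 61.5 CPM at day 0, Id3 was 8.66-fold lower and Id1 4.13-fold lower. The E protein Tcf3 was 1.73-fold lower as well, so that 4 of 5 tested members of the Id and E protein list fell, and Tcf12 was not called.

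Of 14 tested fusion and adhesion genes 3 were higher and 9 lower. The 2 membrane proteins that fuse myoblasts, myomaker and myomixer, were among the 3 that rose. Myomaker (Tmem8c in this annotation, chr2:27061636-27072179) had 422 and 389 CPM in DM3, against 2.23 and 2.04 CPM at day 0, which is 189-fold higher. Myomixer (Gm7325) had 356 and 326 CPM in DM3, against 0.105 and 0.170 CPM at day 0 (log2 fold change 11.22, SE 0.245, adjusted p = 1.13e-11), from 3 and 5 counts at day 0. N-cadherin (Cdh2), an adhesion protein, was the other member that rose, with 155 and 151 CPM in DM3, against 85.8 and 84.9 CPM at day 0, and M-cadherin (Cdh15) and Neo1 were not called. Of the 9 members that fell, Kirrel, a homologue of a fly fusion receptor, was 3.69-fold lower, the guanine exchange factor Dock5 3.91-fold, the membrane repair protein Myof 3.05-fold and the co-receptor Cdon 2.70-fold. Jam2, Jam3, Boc, Dock1 and Nphs1 were the others, and the call of Nphs1 (adjusted p = 0.0456) was lost with DESeq2 and when any 1 of the 4 libraries was left out. Leaving out 1 of the 4 libraries left 7 or 8 members lower.

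All 16 tested thick filament genes were higher in DM3 than at day 0, of 18 listed, with a median log2 fold change of 8.34. Their summed level was 12000 and 11080 CPM in DM3, against 13.3 and 11.4 CPM at day 0. Of the 16 tested, 8 were higher than in each other group, and 9 were higher and none lower than in DM1. Myosin binding protein H (Mybph), which decorates the thick filament, had 2125 and 2039 CPM in DM3, against 0.837 and 0.613 CPM at day 0 (2855-fold higher, log2 fold change 11.48, SE 0.215, adjusted p = 5.56e-12). Of the myosin light chains, Mylpf had 3593 and 3096 CPM in DM3, against 1.74 and 2.25 CPM at day 0, and Myl1, the fast essential chain, had 2224 and 1861 CPM in DM3, against 2.23 and 2.28 CPM at day 0. Myl4, the embryonic and atrial essential chain, had 759.8 and 647 CPM in DM3, against 1.19 and 1.02 CPM at day 0 (635-fold higher). In each of these genes both DM3 libraries stood far above both day 0 libraries. Myosin binding protein C of slow fibres (Mybpc1) had 88.1 and 76.2 CPM in DM3 with a ratio of counts over day 0 of 2381 (95% counting interval 659 to 19669, on 0 and 2 counts at day 0). Such ratios, here and below, rest on 1 to 3 counts over both day 0 libraries, the interval covers counting error only, and where all of these counts lie in 1 library no ratio can be had without it. Mylk2, the skeletal myosin light chain kinase, was the smallest riser at 2.02-fold.

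Myosin heavy chains make the motor of the filament, and each fibre type and age of muscle uses its own. Per kilobase of exon, the embryonic chain Myh3 took 98.4 and 98.5% of the summed sarcomeric Myh signal in the DM3 libraries, 83.1 and 84.2% in DM1, 92.5 and 92.0% in DM2, and 98.1 and 98.1% in DM3 at day 2. The summed signal was 1144 and 1265 per 1e6 in DM3, 103 and 71.8 in DM1, 33.9 and 28.0 in DM2 and 0.651 and 0.449 at day 0. The other chains together took under 2% in each DM3 library and over 15% in each DM1 library. Given as log2 fold change over DM1 and adjusted p, none of Myh1 (-1.18, 0.109), Myh8 (0.06, 0.973), Myh7 (0.85, 0.0950), Myh4 (1.65, 0.0667) and Myh6 (1.05, 0.0673) was called between DM3 and DM1, nor was the low Myh2 (0.25, 0.889). Myh7b, a slow-type chain, was called higher, with 9.85 and 10.4 CPM in DM3, against 1.21 and 1.38 CPM in DM1 (7.80-fold, adjusted p = 5.39e-05). Myh3 itself was 22.2-fold higher in DM3 than in DM1. The slow chain Myh7 had 31.5 and 28.7 CPM in DM3, against 0.0698 and 0.102 CPM at day 0. Of the adult fast chains, Myh4 had 6.85 and 8.75 CPM in DM3, with a ratio of counts over day 0 of 453 (95% counting interval 80.8 to 17946, on 1 and 0 counts at day 0). The perinatal chain Myh8 was called 58.9-fold higher than at day 0, on 6 and 0 counts there, and 29.9-fold without the second day 0 library, while without the first no count at day 0 is left to set a fold. Myh1 was 16.7-fold higher, and 30.4-fold without the first day 0 library, on the 3 counts of the second.

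**Figure D3:**
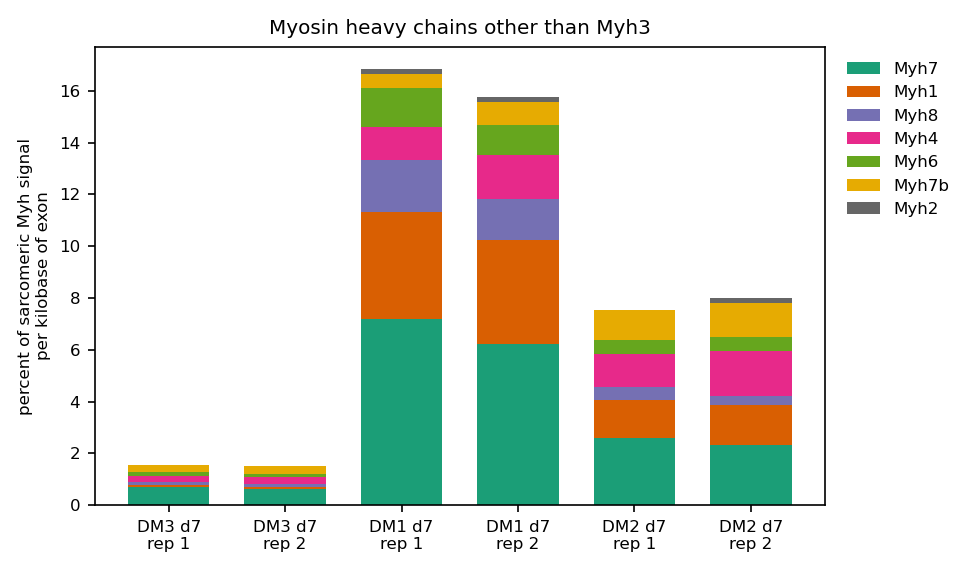
Percent of the summed sarcomeric myosin heavy chain signal per kilobase of exon taken by chains other than Myh3, for each library of DM3, DM1 and DM2 at day 7 (stacked bars, 2 libraries a medium). The DM3 bars stay under 2%, below the DM2 bars and far below the DM1 bars.

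Of 17 thin filament genes 16 were higher in DM3, with a median log2 fold change of 7.03, and each of these 16 was also called higher than in all 6 other groups. Over all genes tested 6.91% were higher in DM3 than in each other group. The summed level of the list was 27640 and 25560 CPM in DM3, against 1025 and 991 CPM at day 0. Troponins make contraction depend on calcium, and members of both fibre types rose. Fast troponin T (Tnnt3) had 1635 and 1517 CPM in DM3, against 1.05 and 1.77 CPM at day 0, fast troponin I (Tnni2) had 2124 and 1808 CPM in DM3, against 1.78 and 1.81 CPM at day 0, and slow and cardiac troponin C (Tnnc1) had 2133 and 1856 CPM in DM3, against 2.69 and 2.76 CPM at day 0. Slow troponin I (Tnni1) had 864 and 753 CPM in DM3, against 2.76 and 3.34 CPM at day 0 (265-fold higher, log2 fold change 8.05, SE 0.154, adjusted p = 6.11e-12). Nebulin (Neb), the giant protein that runs along the thin filament, had 646 and 879 CPM in DM3, against 1.57 and 2.38 CPM at day 0 (384-fold higher). No library of one group came near the range of the other for these 5 genes.

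Actins, troponins and tropomyosins differed in their level at day 0 and in how far they rose. Cardiac alpha-actin (Actc1), made by developing skeletal muscle, had 1129 and 989 CPM in DM3, against 2.16 and 0.579 CPM at day 0. The 2 day 0 libraries differed here, and the 772-fold rise was 1813-fold without the first of them and 488-fold without the second. Fast troponin C (Tnnc2) had 335 and 282 CPM in DM3, against 0.349 and 0.170 CPM at day 0 (1171-fold higher, 1761-fold without the first day 0 library). Cardiac troponin T (Tnnt2) had 969 and 862 CPM in DM3, against 117 and 117 CPM at day 0 and was 7.83-fold higher. Tropomyosin 2 was 12.2-fold and tropomyosin 1 2.13-fold higher, whereas tropomyosin 3 (Tpm3), used by slow fibres and by non-muscle cells, fell to 197 and 196 CPM in DM3, against 543 and 489.7 CPM at day 0. Tmod4 was the tested member not called. Per kilobase of exon, Acta1 averaged 18920 per 1e6 in DM3 and 7.21 at day 0, above Mylpf at 7050, Tnnc1 at 4290 and Tnni2 at 2940 in DM3. RSEM shares out reads that fit several actin genes, so levels of Acta1, Actc1 and Acta2 carry that uncertainty.

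Of 22 tested genes of the Z-disc, the M-band and titin 20 were higher and 1 lower, with a median log2 fold change of 3.16, and 17 were higher than in each other group. Titin (Ttn), the molecular spring of the sarcomere, had 1725 and 2451 CPM in DM3, against 159 and 198 CPM at day 0 (11.7-fold higher, log2 fold change 3.55, SE 0.244, adjusted p = 7.13e-07). Muscle LIM protein (Csrp3), a Z-disc sensor of stretch, had 120.2 and 111 CPM in DM3, against 0.209 and 0.102 CPM at day 0. Myomesin 2 (Myom2), a crosslinker of the M-band, had 1099 and 1159.9 CPM in DM3, against 4.15 and 4.67 CPM at day 0 (256-fold higher). Csrp3 was near 0 at day 0, whereas Ttn was already transcribed. Alpha-actinin 2 (Actn2) had a ratio of counts of 406 (95% counting interval 138 to 1970.3, on 3 and 0 counts at day 0), whereas its fast-fibre relative Actn3 had 852 and 892 CPM in DM3, against 161 and 142 CPM at day 0 (5.77-fold higher). Desmin (Des), the intermediate filament of muscle, which myoblasts also make, had 2073 and 2021 CPM in DM3, against 931 and 796 CPM at day 0 (2.37-fold higher). Xirp1, an actin-binding repeat protein of developing muscle, was 2.27-fold lower. Myomesin 3 was 376-fold higher, and 647-fold without the first day 0 library, on the 2 counts of the second.

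**Figure D4:**
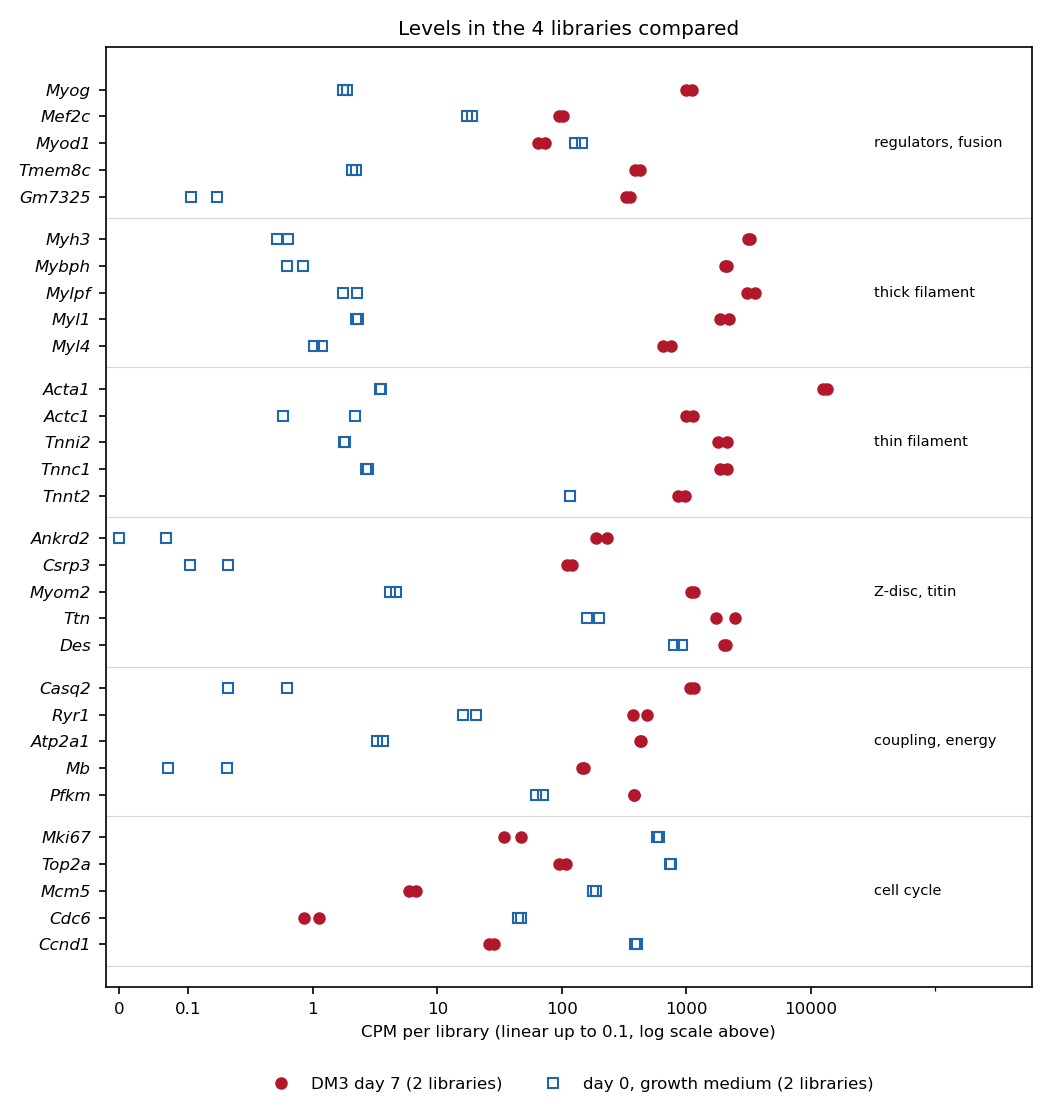
CPM of 30 genes in both DM3 libraries of day 7 (red points) and both day 0 libraries (blue squares), on an axis that is linear up to 0.1 and logarithmic above. For the muscle genes other than Myod1 the red points lie to the right of the blue squares, and for the 5 cell cycle genes and Myod1 to the left.

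Genes of fast and of slow fibres rose side by side: 14 of 14 tested fast fibre genes were higher, and 12 of 13 slow fibre genes, with Tpm3 the 1 that was lower. The lists share some members with the sarcomere lists above. The calcium store proteins show both types. Slow calsequestrin (Casq2) had 1147 and 1072 CPM in DM3, against 0.209 and 0.613 CPM at day 0, which is 2655-fold higher, 1795-fold without the first day 0 library and 5179-fold without the second. Fast calsequestrin (Casq1) had 35.6 and 33.6 CPM in DM3, with a ratio of counts of 1004 (95% counting interval 278 to 8299, on 1 and 1 counts at day 0). Per kilobase of exon Casq2 averaged 909 per 1e6 and Casq1 39.8 in DM3. The fast calcium pump Atp2a1 had 429.9 and 426 CPM in DM3, against 3.66 and 3.27 CPM at day 0 (123-fold higher), and the slow pump Atp2a2 had 979 and 1004 CPM in DM3, against 495 and 482 CPM at day 0 (2.03-fold higher). Per kilobase of exon the pumps reached 276 per 1e6 (Atp2a1) and 366 (Atp2a2) in DM3. Eno3, the muscle enolase, was the fast fibre gene with the smallest rise (1.37-fold).

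Excitation-contraction coupling carries the membrane signal to the calcium store. Of 20 tested genes 19 were higher in DM3, with a median log2 fold change of 4.10, and 18 were higher than in each other group. The ryanodine receptor Ryr1, which releases calcium, had 374 and 482 CPM in DM3, against 16.0 and 20.6 CPM at day 0 (23.4-fold higher, log2 fold change 4.55, SE 0.196, adjusted p = 6.17e-09). Cacna1s, the voltage sensor of the tubules, had 59.9 and 65.3 CPM in DM3, against 0.174 and 0.102 CPM at day 0, and the muscle sodium channel Scn4a had 33.8 and 36.5 CPM in DM3, against 0.140 and 0.0681 CPM at day 0. Sarcalumenin (Srl), a calcium buffer, had 559 and 577 CPM in DM3, against 7.4 and 6.61 CPM at day 0 (81.0-fold higher). Junctophilin 2 (Jph2), which joins tubule and store, had 681 and 668 CPM in DM3, against 62.1 and 61.2 CPM at day 0 and was thus on at day 0 already. In all 5 genes both DM3 libraries were above both day 0 libraries. The chloride channel Clcn1 was tested and not called, and sarcolipin (Sln) was at 0 counts in all 4 libraries.

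Of 11 tested neuromuscular junction genes 8 were higher and 1 lower. Fetal muscle uses the gamma subunit of the acetylcholine receptor (Chrng), which adult muscle swaps for the epsilon subunit (Chrne). Chrng had 249 and 223 CPM in DM3, against 1.29 and 1.5 CPM at day 0 (169-fold higher, log2 fold change 7.4, SE 0.294, adjusted p = 1.03e-08), while Chrne, too low to test, had 0.0423 and 0 CPM in DM3, against 0 and 0 CPM at day 0. The delta subunit Chrnd was 9.53-fold higher, acetylcholinesterase (Ache) 4.25-fold and the receptor kinase Musk 2.68-fold. Colq, the collagen tail that anchors acetylcholinesterase, was at 0 counts in both day 0 libraries and at least 26.1-fold higher in DM3, at 2.41 and 3.00 CPM. Chrna1, the alpha subunit, was high in both groups, with 465 and 441 CPM in DM3, against 572 and 534 CPM at day 0, and its call (log2 fold change -0.29, adjusted p = 0.0356) was lost when any 1 of the 4 libraries was left out. Chrnb1 and Rapsn were not called.

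The dystrophin complex ties the cytoskeleton of the fibre to its surroundings, and 11 of its 13 genes were higher in DM3, with none lower and a median log2 fold change of 1.79. Dystrophin (Dmd) was at 0 counts in both day 0 libraries and had 2.03 and 1.40 CPM in DM3, at least 16.6-fold higher. Caveolin 3 (Cav3), the muscle caveolin, was also at 0 at day 0 and at least 18.3-fold higher. Utrophin (Utrn), the relative of dystrophin in non-muscle cells, was not called, with 214 and 277 CPM in DM3, against 234 and 255 CPM at day 0. Dysferlin (Dysf), which reseals torn membrane, was 11.3-fold higher and alpha-sarcoglycan (Sgca) 2.26-fold.

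Enzymes that supply energy to contraction rose in 13 of 15 tested cases, of 18 listed, with none lower and a median log2 fold change of 3.04. Glycogen phosphorylase of muscle (Pygm) had 64.0 and 63.3 CPM in DM3, against 0.837 and 0.75 CPM at day 0 (79.8-fold higher), and the muscle phosphofructokinase Pfkm had 378 and 378 CPM in DM3, against 70.3 and 62.0 CPM at day 0 (5.71-fold higher). Myoglobin (Mb), which stores oxygen, had 150.2 and 145 CPM in DM3, against 0.0698 and 0.204 CPM at day 0, 1035-fold higher, and 1977-fold without the second day 0 library, on the 2 counts of the first. Muscle phosphoglycerate mutase (Pgam2) had a ratio of counts of 1051 (95% counting interval 291 to 8688, on 2 and 0 counts at day 0). 3 muscle forms of cytochrome oxidase subunits rose as well: Cox6a2 by a ratio of counts of 1165 (95% counting interval 209 to 46060, on 0 and 1 counts at day 0), Cox8b by at least 43.9-fold from 0 counts in both day 0 libraries, and Cox7a1 6.17-fold. Fabp3, a fatty acid carrier of heart and muscle, was 34.6-fold higher, and 60.9-fold without the first day 0 library. The brain-type creatine kinase Ckb was not called, nor was Phka1.

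Chaperones and Kelch proteins keep the myofibril in order, and 11 of 15 tested members were higher and 3 lower. Klhl41, whose loss causes nemaline myopathy, had 674 and 653 CPM in DM3, against 1.47 and 1.29 CPM at day 0 (479-fold higher, log2 fold change 8.90, SE 0.151, adjusted p = 5.46e-12). Its partner Klhl40 was 129.6-fold higher, and Unc45b, the myosin chaperone, had 39.4 and 36.9 CPM in DM3, against 0.0698 and 0.0681 CPM at day 0 (517-fold higher). The small heat shock protein Hspb7 had a ratio of counts of 598 (95% counting interval 165 to 4946, on 0 and 2 counts at day 0). Hspb6 was 2.67-fold lower, and Hspb1, 1.59-fold lower, and Kbtbd12 were the other members that fell. The call of Hspb1 was lost without the first day 0 library. Leaving out 1 of the 4 libraries left 9 or 10 members higher.

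Splicing regulators shape muscle isoforms, and of 11 tested 5 were higher and 4 lower. Ptbp1, which represses muscle exons in myoblasts, fell to 88.6 and 89.8 CPM in DM3, against 483 and 442 CPM at day 0 (log2 fold change -2.38, SE 0.0893, adjusted p = 5.51e-10). Rbm24, a muscle splicing activator, had 118 and 112 CPM in DM3, against 0.105 and 0.0341 CPM at day 0 and was 1557-fold higher, with 2951-fold without the first day 0 library and 1049-fold without the second, on 1 and 3 counts. The muscle kinase Srpk3 had a ratio of counts of 418 (95% counting interval 115 to 3459, on 1 and 1 counts at day 0). Mbnl3 was 2.00-fold lower, and Mbnl2 was 1.42-fold lower. The call of Mbnl1 (log2 fold change -0.34, adjusted p = 0.0224) was lost when any 1 of the 4 libraries was left out, and so it was when the low-pseudogene libraries were removed together.

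Notch signalling holds satellite cells back, and its list split into 6 higher and 3 lower of 13 tested genes. The ligand Dll1 had 21.9 and 22.7 CPM in DM3, against 0.768 and 0.852 CPM at day 0, and the target Heyl had 92.2 and 83.7 CPM in DM3, against 3.94 and 4.46 CPM at day 0. Notch3 was 4.39-fold higher and Notch1 1.67-fold lower, and Spry1, a brake on growth factor signals in resting satellite cells, was 12.2-fold higher. The libraries of the groups did not overlap for these 5 genes. Pax7, the marker of satellite cells, had 0.634 and 0.739 CPM in DM3, against 0.209 and 0.170 CPM at day 0 and was not called.

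All 24 DNA replication genes and all 20 mitosis genes were lower in DM3 than at day 0, with median log2 fold changes of -3.28 and -2.85. Summed over the replication list the level was 551 and 571 CPM in DM3, against 3015 and 2851 CPM at day 0. The helicase subunit Mcm5 had 5.96 and 6.73 CPM in DM3, against 188 and 177 CPM at day 0, and Cdc6, which loads the helicase on origins, had 0.845 and 1.11 CPM in DM3, against 47.1 and 44.4 CPM at day 0 (log2 fold change -5.54, SE 0.186, adjusted p = 2.27e-10). Thymidine kinase (Tk1) fell to 2.75 and 2.71 CPM in DM3, against 114 and 99.3 CPM at day 0. The smallest falls were those of the ribonucleotide reductase subunit Rrm2, with 249 and 257 CPM in DM3, against 489 and 509 CPM at day 0 (1.97-fold lower), of E2f1 and of the clamp Pcna (2.90-fold lower). Fold changes within this list thus reached from about 2-fold to 46.6-fold lower.

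The mitosis list summed to 550.1 and 619 CPM in DM3, against 4108 and 4021 CPM at day 0. Mki67, whose promoter is printed above, had 34.2 and 47.2 CPM in DM3, against 585 and 605 CPM at day 0 (14.6-fold lower, log2 fold change -3.87, SE 0.20, adjusted p = 2.23e-08), and Cdc20 had 25.7 and 32.5 CPM in DM3, against 208 and 172 CPM at day 0 (6.52-fold lower). Topoisomerase Top2a fell to 95.2 and 109 CPM in DM3, against 744 and 748 CPM at day 0, and the factor Mybl2 to 1.31 and 1.48 CPM in DM3, against 52.0 and 46.9 CPM at day 0. The kinase Cdk1 had the smallest fall, with 72.1 and 71.6 CPM in DM3, against 238 and 227 CPM at day 0 (3.23-fold lower). Both DM3 libraries were below both day 0 libraries for each of these 5 genes, and transcripts of the list were still detected in DM3.

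The 2 lists parted when DM3 was set against DM1, the same serum without the cocktail. There 47.7% of all genes were called, 22.7% higher and 25.1% lower in DM3. Of the mitosis genes 18 of 20 were lower in DM3 than in DM1 and 1 was higher (median log2 fold change -0.84), and 18 were lower than in each other group, against 6.5% of all genes. Of the replication genes 3 of 24 were lower than in DM1 and 5 were higher (median -0.07): Rrm2, Pcna, Fen1, Ccne2 and Orc1. Rrm2 had 249 and 257 CPM in DM3, against 119 and 150.1 CPM in DM1, and Mki67 had 34.2 and 47.2 CPM in DM3, against 122 and 136 CPM in DM1. Cdk1 was the mitosis gene that was higher in DM3, with 72.1 and 71.6 CPM in DM3, against 58.1 and 56.7 CPM in DM1. Against DM2, the cocktail in 10% FCS, all 20 mitosis and 23 replication genes were lower in DM3, where 25.2% of all genes were lower and 27.5% higher.

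Regulators of the exit from the cycle moved both ways, with 4 of 11 tested members of the list higher and 4 lower. The CDK inhibitor p21 (Cdkn1a), which MyoD is known to induce, had 728 and 666 CPM in DM3, against 177 and 189 CPM at day 0 (3.8-fold higher). Cyclin D3 (Ccnd3), which stays bound to the retinoblastoma protein in myotubes, had 551 and 512 CPM in DM3, against 158 and 138 CPM at day 0, while cyclin D1 (Ccnd1), which mitogens induce, fell to 25.9 and 28.5 CPM in DM3, against 385 and 399 CPM at day 0 (log2 fold change -3.85, SE 0.106, adjusted p = 5.49e-11). The retinoblastoma gene Rb1 was 2.85-fold higher and its relative Rbl1 8.99-fold lower. No library crossed over between the groups in these 5 genes.

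Of 18 known glucocorticoid targets 17 were higher in DM3 than at day 0 and none lower, with a median log2 fold change of 2.66. Dexamethasone and 7 days of differentiation changed together in this comparison and cannot be told apart in it. Hsd11b1, the enzyme that regenerates active glucocorticoid, had 80.3 and 63.4 CPM in DM3, against 0.279 and 0.273 CPM at day 0 (256-fold higher). The metallothionein Mt2, a metal-binding protein, had 1422 and 1398 CPM in DM3, against 24.7 and 23.3 CPM at day 0. Tsc22d3 (GILZ), a glucocorticoid-induced leucine zipper protein, had 1113 and 1108 CPM in DM3, against 38.1 and 33.4 CPM at day 0 (31-fold higher, log2 fold change 4.96, SE 0.113, adjusted p = 1.41e-11), and Fkbp5, a co-chaperone of the receptor, had 260.1 and 253 CPM in DM3, against 55.7 and 52.9 CPM at day 0. Each pair of DM3 libraries was above the day 0 pair. Zbtb16 had a ratio of counts of 296 (95% counting interval 52.6 to 11741, on 0 and 1 counts at day 0), and Sgk1 was not called.

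Set against DM1, which had no dexamethasone, 8 of the 18 were higher in DM3 and 6 lower (median 0.08). Tsc22d3 had 1113 and 1108 CPM in DM3, against 527 and 558 CPM in DM1. Hsd11b1 went the other way, with 80.3 and 63.4 CPM in DM3, against 139.6 and 131 CPM in DM1, and Fkbp5 was lower too (log2 fold change -0.21, adjusted p = 0.0271). The clock gene Per1 was not called between the media (0.03, adjusted p = 0.840), although it was 6.72-fold higher in DM3 than at day 0.

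Of 15 tested targets of cAMP, whose breakdown IBMX blocks, 8 were higher and 4 lower than at day 0, and 5 higher with library totals alone. Rgs2, a brake on G protein signals, had 72.4 and 66.8 CPM in DM3, against 0.314 and 0.238 CPM at day 0. The kinase Sik1 had 554 and 612 CPM in DM3, against 65.3 and 57.8 CPM at day 0, and the phosphodiesterase Pde4b had 351 and 347 CPM in DM3, against 53.0 and 52.5 CPM at day 0. Amphiregulin (Areg), a growth factor, fell to 1.10 and 1.03 CPM in DM3, against 30.1 and 26.1 CPM at day 0. Sik1 and Pde4b were also higher in DM3 than in DM1 (log2 fold changes 2.24 and 2.48), where 7 of the 15 were higher and 3 lower.

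The cocktail induces fat cells in other cultures, so markers of adipocytes were looked at one by one. The defining genes Adipoq, Cidec, Cidea, Cfd, Ucp1 and Lep were at 0 counts in all 4 libraries, where 3 counts would have been 0.127 and 0.123 CPM in DM3 and 0.105 and 0.102 CPM at day 0. Resistin (Retn) had 2 counts in each DM3 library and 0 in each day 0 library. Pparg, the master factor of fat cells and the target of rosiglitazone, fell to 12.3 and 12.6 CPM in DM3, against 24.3 and 22.2 CPM at day 0 (log2 fold change -0.91, SE 0.128, adjusted p = 6e-05). Fabp4, the fatty acid carrier of adipocytes, was near 1 CPM, with 0.719 and 1.15 CPM in DM3, against 0.488 and 0.341 CPM at day 0. Of 16 markers 9 could be tested, 6 higher and 2 lower, and their summed level was 100.3 and 95.7 CPM in DM3, against 61 and 54.6 CPM at day 0. Fabp4 was among the 6, and its call was lost under 3 of the alternatives described below. In DM1, without the cocktail, the same list summed to 99.45 and 112 CPM. Against DM1, 1 of the 9 tested markers was higher in DM3 and 4 were lower. The factor Cebpa had 24.5 and 22.8 CPM in DM3, against 3.04 and 1.87 CPM at day 0, and the lipid droplet protein Plin4, which muscle also makes, was 8.55-fold higher. Plin1, the droplet protein of fat cells, was not called.

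Of 22 tested genes of PPAR signalling and fatty acid oxidation 13 were higher and 5 lower. The fatty acid transporter Cd36 had 29.3 and 24.3 CPM in DM3, with a ratio of counts of 517 (95% counting interval 176 to 2509, on 1 and 2 counts at day 0), and lipoprotein lipase (Lpl) had 229 and 204 CPM in DM3, against 46.9 and 51.0 CPM at day 0 (4.42-fold higher). The uncoupling protein of muscle Ucp3 had a ratio of counts of 334 (95% counting interval 59.4 to 13221, on 0 and 1 counts at day 0). Cpt1b, the muscle form of the enzyme that lets fatty acids into mitochondria, was 4.53-fold lower, with 0.888 and 0.575 CPM in DM3, against 3.21 and 3.44 CPM at day 0. In fatty acid synthesis 5 of 12 tested genes rose and 4 fell, among them the desaturase Scd1 (3.25-fold higher) and the elongase Elovl6 (6.57-fold lower). Cholesterol synthesis held 6 higher and 4 lower of 20, whereas against DM2 17 of the 20 were higher and 2 lower in DM3. Against DM1 1 was higher and 10 lower, and against DM3 at day 2 none was higher and 14 were lower.

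Insulin and IGF genes included large changes, with 10 of 16 higher and 4 lower. Igf2, a growth factor that drives myoblast differentiation, had 169 and 154 CPM in DM3, against 0.977 and 0.954 CPM at day 0 (167-fold higher, log2 fold change 7.38, SE 0.129, adjusted p = 5.46e-12). H19, the non-coding RNA from the same imprinted locus, had 28761 and 26055 CPM in DM3, against 1200 and 1066 CPM at day 0 (24.2-fold higher). The 2 neighbours thus both rose, H19 from a high and Igf2 from a low level. Igf1 was 20.7-fold higher, with 1.78 and 1.27 CPM in DM3, against 0.105 and 0.0341 CPM at day 0, and 39.3-fold without the first day 0 library and 14-fold without the second, on 1 and 3 counts. Igfbp5, a binding protein made by myotubes, was 3.19-fold higher, the kinase Akt2 3.40-fold, and Igfbp2 4.05-fold lower. Of 6 tested imprinted genes 3 were higher (H19, Igf2 and Grb10) and 1 lower (Cdkn1c, whose call was lost without any 1 of the 4 libraries). Grb10, an imprinted brake on the insulin receptor, was at 0 counts in both day 0 libraries and at least 14.9-fold higher in DM3.

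Of 14 atrophy and autophagy genes 12 were higher in DM3 and none lower, with a median log2 fold change of 0.99, and with library totals alone the same number were higher and 2 lower. The muscle ubiquitin ligase Trim63 (MuRF1), which glucocorticoids are known to induce, was at 0 counts in both day 0 libraries and had 23.3 and 22.7 CPM in DM3, at least 222-fold higher. Its partner in atrophy Fbxo32 (atrogin-1) had 293 and 304 CPM in DM3, against 27.6 and 33.8 CPM at day 0 (9.72-fold higher, log2 fold change 3.28, SE 0.121, adjusted p = 4.82e-10). The autophagosome protein Map1lc3a had 671 and 624 CPM in DM3, against 25.6 and 25.3 CPM at day 0, and the factors Foxo3 and Foxo1, which turn on these genes, were 2.16-fold and 1.65-fold higher. All day 0 libraries lay below the DM3 libraries for these 5 genes. Trim63 was also detected in DM1, which had no dexamethasone (3.53 and 3.92 CPM), and in DM2, which had it (0.866 and 1.09 CPM). Per kilobase of exon Fbxo32 had 91.7 and 100.5 in DM3, 86.7 and 79.1 in DM1 and 12.5 and 15.2 at day 0. Of the 14 genes 7 were higher and 2 lower in DM3 than in DM1, and 5 higher and 7 lower than in DM2. The part of dexamethasone in these changes was not tested.

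Glycolysis and glucose uptake split evenly, with 7 of 18 higher and 7 lower, whereas nuclear genes of the respiratory chain were higher in 16 of 24 cases and lower in none. The insulin-responsive glucose transporter Slc2a4 was 8.21-fold higher, and Txnip, a brake on glucose uptake, had 464 and 466 CPM in DM3, against 60.2 and 71.4 CPM at day 0 (7.07-fold higher). The lactate dehydrogenase subunits parted: Ldha, which favours lactate, was 2.33-fold lower and Ldhb 3.53-fold higher. Pyruvate kinase Pkm fell to 1719 and 1879 CPM in DM3, against 3396 and 2931 CPM at day 0. The respiratory chain genes rose by little (median log2 fold change 0.49), led by Cox6c at 2.45-fold, and with library totals alone 13 were higher.

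The 13 mRNAs of the mitochondrial genome summed to 61040 and 55910 CPM in DM3, against 23450 and 23590 CPM at day 0, and 9 were higher and none lower. The cytochrome oxidase subunit mt-Co1 had 32565 and 29155 CPM in DM3, against 8902 and 8428 CPM at day 0 (3.56-fold higher, log2 fold change 1.83, SE 0.101, adjusted p = 1.28e-08), and mt-Nd1 was not called, with 2360.5 and 1969 CPM in DM3, against 2317 and 2159 CPM at day 0. The count fell to 5 without the first DM3 library and to 6 with library totals alone. Nuclear copies of mitochondrial sequence can share reads with these genes, and Gm10925, a separate gene of the annotation on chromosome 1, was among the 10 genes with the largest gains in CPM (8972 and 7711 CPM in DM3, against 3010.1 and 3416 CPM at day 0).

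Extracellular matrix genes went both ways, with 7 of 25 tested higher and 10 lower. Decorin (Dcn), a proteoglycan that binds collagen, was 28.7-fold higher, with 19.4 and 17.5 CPM in DM3, against 0.628 and 0.647 CPM at day 0. The collagen VI chains Col6a2 and Col6a1, which surround muscle fibres, were 15.8-fold and 8.85-fold higher, and the gelatinase Mmp2 14.8-fold. Col8a1, a short-chain collagen, fell to 1.44 and 1.07 CPM in DM3, against 77.8 and 81.4 CPM at day 0 (log2 fold change -5.99, SE 0.158, adjusted p = 4.19e-11). Tenascin C (Tnc), a matrix protein of developing and injured tissue, had 41.1 and 55.2 CPM in DM3, against 1124 and 1076 CPM at day 0 (22.9-fold lower), and fibronectin (Fn1) was 2.26-fold lower. Col1a1, the main collagen of connective tissue, was not called against day 0, with 87.7 and 105 CPM in DM3, against 108 and 94.2 CPM at day 0. Against DM1 it was 12.8-fold lower, with 1361 and 1111 CPM in the DM1 libraries, and 22 of 25 matrix genes were lower in DM3 than in DM1 (median log2 fold change -1.55), whereas 16 were higher and 2 lower than in DM2. Fibroblast markers moved with the matrix genes against DM1, where all 9 tested were lower in DM3 (median log2 fold change -1.82), and against DM2 2 were higher and 3 lower. Both lists hold Lum, so they are not fully separate, and the part of the fibroblast markers in the matrix values was not tested.

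Smooth muscle and SRF genes held 3 higher and 5 lower of 13. Smooth muscle actin (Acta2), which early myotubes also make, had 2264 and 2028 CPM in DM3, against 486 and 445 CPM at day 0 (4.61-fold higher), whereas calponin (Cnn1) had 0.127 and 0.246 CPM in DM3, against 4.15 and 3.75 CPM at day 0 (20.6-fold lower). Markers of fibroblasts summed to 2252 and 2239 CPM in DM3, against 6690 and 6024 CPM at day 0, with 5 of 9 tested genes higher, 3 without the first DM3 library, and 2 lower. The 5 higher genes were each at least 2-fold higher, and the median log2 fold change of the fibroblast list was 1.04, although the sum fell. Most of that sum was vimentin (Vim), which myoblasts make too. Vim had 1533 and 1583 CPM in DM3, against 5750.1 and 5146 CPM at day 0 (3.5-fold lower), and S100a4 was 9.36-fold lower. The osteoblast and cartilage list summed to 121 and 132 CPM in DM3, against 139 and 147 CPM at day 0, with 1 of 7 tested higher and 3 lower. The immune and endothelial list summed to 5.54 and 5.58 CPM in DM3, against 2.93 and 3.07 CPM at day 0. Of its 6 tested genes 2 were higher, 1 without the second day 0 library or without either DM3 library, and the leukocyte markers Ptprc, Itgam, Cd3e and Cd79a were too low to test. These lists moved by the values given, and their part in the results above was not tested.

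Of 16 genes of the unfolded protein and amino acid responses 5 were higher and 7 lower than at day 0, and 3 higher with library totals alone. The chaperone Dnajb9 and the factor Ddit3 (CHOP) were 5.68-fold and 3.46-fold higher. The enzymes of serine and asparagine synthesis Phgdh, Psat1 and Asns were 2.83-fold, 2.75-fold and 2.49-fold lower, and all 16 genes of the list were lower in DM3 than in DM2. Against DM1 1 was higher and 8 lower, and against DM3 at day 2 12 were higher and 1 lower. Interferon genes showed 3 of 15 tested higher and 3 lower, in neither direction above the share of all genes, and 12 were lower and 1 higher than in DM1.

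In both day 0 libraries 46 genes were at 0 counts that reached a mean of at least 1 CPM in DM3, 38 of them protein-coding, and 12 reached 10 CPM. Gdf5, a growth factor of the BMP family, had 23.8 and 18.9 CPM in DM3 and was at least 207-fold higher. The tight junction protein Cldn2 was at least 163-fold higher, the ADP-ribosyltransferase of muscle Art1 151-fold, haptoglobin (Hp) 145-fold and Ceacam10 125-fold. In the other direction 4 genes at 0 counts in both DM3 libraries averaged at least 10 CPM at day 0, and all 4 were processed pseudogenes with counts in the first day 0 library alone. Among falls, Tm4sf1, a membrane protein of growing cells, had 6.98 and 6.49 CPM in DM3, against 327 and 301 CPM at day 0 (46.6-fold lower), the lysyl oxidase Loxl4 had 0.338 and 0.329 CPM in DM3, against 22.4 and 22.0 CPM at day 0, and the hedgehog-binding protein Hhip had 1.31 and 2.05 CPM in DM3, against 105 and 106 CPM at day 0.

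By the change in CPM itself, mt-Co1, H19, Gm42418, Acta1 and Gm10925 gained most, and Vim, Actg1, Fn1, Actb and Flna lost most. Gm42418, a long RNA whose locus is known to hold ribosomal repeat sequence, had 18058 and 23182 CPM in DM3, against 2847 and 1306 CPM at day 0 (9.93-fold higher, and 15.8-fold without the first day 0 library and 7.24-fold without the second). The cytoplasmic actins fell, Actg1 to 1635 and 1529.8 CPM in DM3, against 5539 and 4599 CPM at day 0, and Actb to 1592 and 1604 CPM in DM3, against 4461 and 4155 CPM at day 0. Filamin A (Flna), an actin crosslinker of non-muscle cells, was 4.94-fold lower.

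Against all 6 other groups, 1103 genes (6.91%) were called higher than in each and 1039 (6.5%) lower than in each. Ranked by the smallest of the 6 differences, the genes that stood highest included Acta1, Ankrd2, Gdf5, Cldn2, Cap2 and Itgb1bp2. Cap2, an actin-binding protein of striated muscle, had 53.2 and 49.1 CPM in DM3, 1.67 and 2.13 in DM1, 1.81 and 1.67 in DM2 and 1.63 and 1.61 in DM3 at day 2. Itgb1bp2 (melusin), an integrin-binding protein of muscle, had 243 and 210.2 CPM in DM3, 10.1 and 7.60 in DM1, 3.5 and 3.81 in DM2 and 3.70 and 3.62 in DM3 at day 2. Lowest against each group stood among others Amigo2, Spint1, L1cam and Calcb. The adhesion protein L1cam had 1.61 and 1.77 CPM in DM3, 32.9 and 34.7 in DM1, 17.8 and 18.1 in DM2 and 44.1 and 41.4 at day 0.

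Setting DM3 at day 7 beside the groups that share its medium, its serum or its cocktail shows where muscle genes differ with time and medium. Against DM3 at day 2, 7653 genes (47.9%) were called, 22.6% higher and 25.3% lower at day 7. The libraries of DM3 at day 2 differed most from each other of all groups (biological coefficient of variation 46.6%), which limits this comparison. Myog had 1110 and 995 CPM at day 7, against 204 and 231 CPM at day 2, Acta1 had 13398 and 12529 CPM at day 7, against 221 and 288 CPM at day 2, and Tmem8c had 422 and 389 CPM at day 7, against 28.9 and 30.8 CPM at day 2. Of the sarcomere genes, 14 of 16 thick filament genes were higher at day 7 than at day 2. Against DM1, Acta1 had 13398 and 12529 CPM in DM3, against 561 and 422 CPM in DM1 (26.4-fold higher), and Myog had 1110 and 995 CPM in DM3, against 53.5 and 40.9 CPM in DM1 (22.3-fold higher). Against DM2, where 8420 genes (52.7%) were called, Acta1 had 13398 and 12529 CPM in DM3, against 243 and 247 CPM in DM2 (52.9-fold higher), and Myog had 1110 and 995 CPM in DM3, against 32.0 and 32.2 CPM in DM2 (32.8-fold higher). In each of these pairs the DM3 libraries of day 7 were higher, and the comparisons share those libraries. With library totals alone the split of calls changed to 2172 higher and 5786 lower against DM1 and to 2486 higher and 5587 lower against DM3 at day 2.

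**Figure D5:**
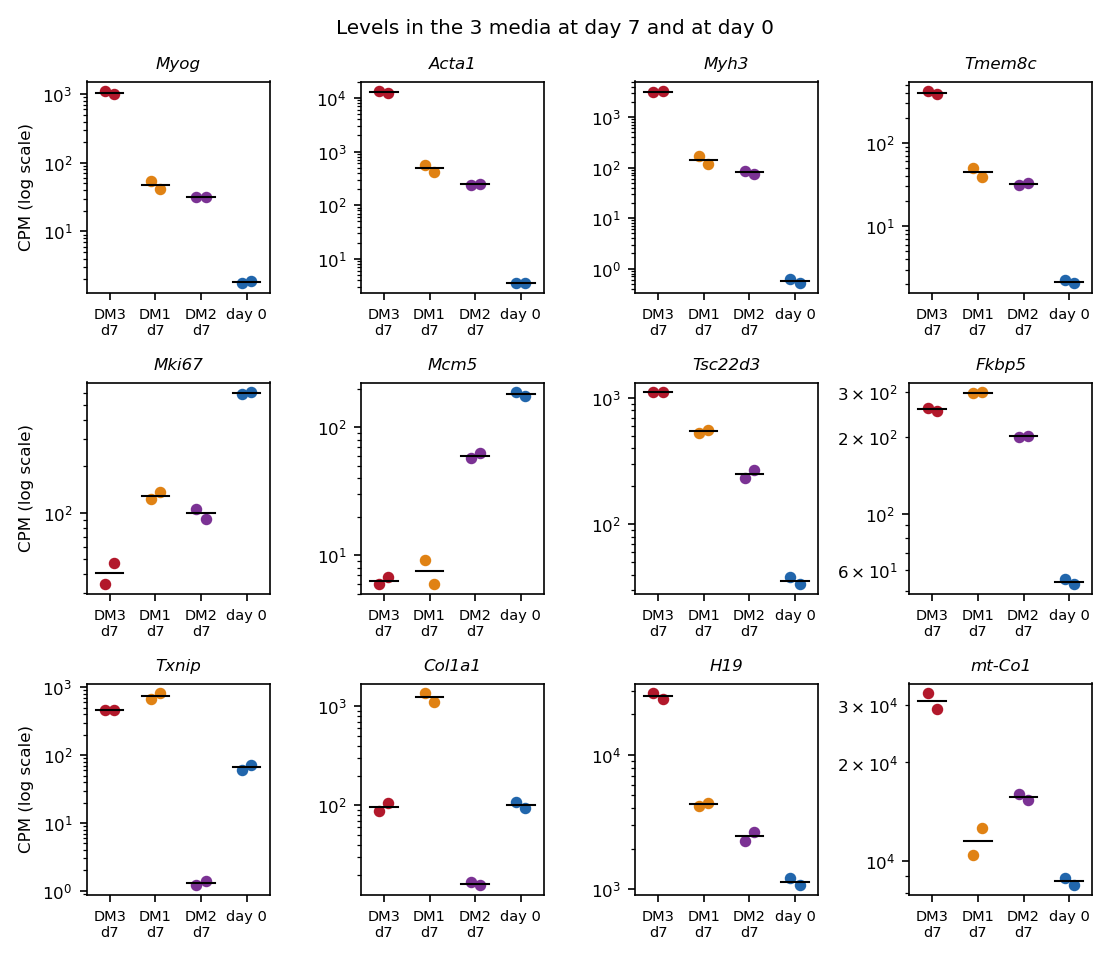
CPM on log axes of 12 genes in the 2 libraries of DM3, DM1 and DM2 at day 7 and of day 0 (points), with the mean of each group as a line. Myog, Acta1, Myh3, Tmem8c and H19 are highest in DM3 and lowest at day 0, Mki67 is highest at day 0 and lowest in DM3, and Fkbp5 and Txnip are higher in DM1 than in DM3.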

How the data were processed

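Poly(A) RNA of C2C12 cells was sequenced in 14 libraries, 2 for each of 7 groups. Per the submitters' processing notes, reads were aligned with STAR 2.5.1b to GRCm38.p5 and counted with RSEM 1.2.31 on Gencode vM12. The authors deposited RSEM's expected counts per gene, not normalized, in 1 table of 49671 genes, 20610 of them with no count in any library. Reads that match several genes are split between those genes by RSEM, so near-identical copies have uncertain levels.

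Here these estimated counts were rounded, and edgeR 4.0.16 was run in R 4.3.3 with limma 3.58.1. The low-count filter filterByExpr by group kept 15973 genes, libraries were scaled by TMM, and all 14 libraries entered 1 quasi-likelihood fit (robust, 7 residual degrees of freedom). A gene was called at a Benjamini-Hochberg adjusted p under 0.05. The standard error (SE) of a log2 fold change was taken as its size over the root of F. Where a group had no count in either library, the fold is a lower bound set by 3 counts in each library, and a ratio on 1 to 3 counts carries its exact 95% counting interval. Both cover counting error only, since reads carry no molecular identifiers. Levels per kilobase divide CPM by the union of a gene's exons (Gencode vM21, which held 49412 of the gene identifiers and gave the coordinates on GRCm38) and are scaled to 1e6. On simulated counts the test recovered 77 of 100 genes changed 2-fold and 91 of 100 changed 4-fold in DM3 at day 7 against day 0. It made 9 false calls among the unchanged genes of the 15973. No other genes were changed in the simulation, and counts were drawn with the fitted spread. In the data 59.0% of genes were called, so the 9 false calls do not give the number of false calls there.

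The comparisons, the members of the 37 gene lists (569 symbols, written from general knowledge) and the promoters were chosen with earlier results of these data known. Named are a panel of genes, up to 5 called members of each list with the largest change in each direction, the 10 genes with the largest gain and the 10 with the largest loss in CPM, the 15 largest rises and the 15 largest falls among genes of at least 10 CPM in a group, and the 10 genes furthest above and the 10 furthest below each other group. Other list members are named where a list is described. Alternatives were DESeq2 1.42.0, other scalings, no low-count filter, only the groups compared, the replicate number as a block, leaving out each library, and leaving out the libraries of low pseudogene share.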

Additional observations from a re-analysis of the deposited data

Results flagged for a closer look

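Panel genes with a called change against day 0 in DM3 and a called change of the opposite sign in another medium at day 7 were looked at again, with edgeR's test of the difference between the media. The 2 changes of each gene share the day 0 libraries, and the difference is that of DM3 over the other medium. The rule already asks for called changes of opposite sign, so a large difference follows from the selection. The adjusted p-values of the differences describe these genes and add no support. Against DM1, 4 genes met this rule. Tnnt2, cardiac troponin T, averaged 915 ± 76.2 CPM in DM3, 82.2 ± 21.9 CPM in DM1 and 117 ± 0.0477 CPM at day 0 (SD, n = 2 each), which gives log2 fold changes over day 0 of 2.97 in DM3 and -0.51 in DM1 and a difference of 3.48 (adjusted p = 9.43e-09). Atp2a2, the slow calcium pump, averaged 992 ± 17.8 CPM in DM3, 364 ± 0.775 CPM in DM1 and 488 ± 8.95 CPM at day 0 (SD, n = 2 each), which gives log2 fold changes over day 0 of 1.02 in DM3 and -0.43 in DM1 and a difference of 1.45 (adjusted p = 1.37e-07). Fos, an immediate early factor, averaged 5.70 ± 1.00 CPM in DM3, 1.83 ± 0.693 CPM in DM1 and 3.42 ± 0.350 CPM at day 0 (SD, n = 2 each), which gives log2 fold changes over day 0 of 0.74 in DM3 and -0.90 in DM1 and a difference of 1.63 (adjusted p = 0.000425). Acta2, smooth muscle actin, averaged 2146 ± 167 CPM in DM3, 322 ± 54.1 CPM in DM1 and 465 ± 29.4 CPM at day 0 (SD, n = 2 each), which gives log2 fold changes over day 0 of 2.21 in DM3 and -0.53 in DM1 and a difference of 2.74 (adjusted p = 5.26e-08). Fos is low in all 3 groups, and its call against day 0 in DM3 was lost in some of the alternatives below.

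Against DM2, 7 genes did so. Mef2c, the muscle factor, averaged 98.3 ± 5.61 CPM in DM3, 10.1 ± 0.818 CPM in DM2 and 18.2 ± 1.18 CPM at day 0 (SD, n = 2 each), which gives log2 fold changes over day 0 of 2.43 in DM3 and -0.85 in DM2 and a difference of 3.28 (adjusted p = 1.23e-09). Tnnt2, cardiac troponin T, averaged 915 ± 76.2 CPM in DM3, 37.8 ± 1.86 CPM in DM2 and 117 ± 0.0477 CPM at day 0 (SD, n = 2 each), which gives log2 fold changes over day 0 of 2.97 in DM3 and -1.63 in DM2 and a difference of 4.6 (adjusted p = 7.49e-10). Ttn, titin, averaged 2088 ± 513 CPM in DM3, 73.7 ± 13 CPM in DM2 and 179 ± 27.9 CPM at day 0 (SD, n = 2 each), which gives log2 fold changes over day 0 of 3.55 in DM3 and -1.28 in DM2 and a difference of 4.83 (adjusted p = 1.8e-07). Actn3, fast alpha-actinin, averaged 872 ± 28.4 CPM in DM3, 48.2 ± 5.92 CPM in DM2 and 151 ± 13.2 CPM at day 0 (SD, n = 2 each), which gives log2 fold changes over day 0 of 2.53 in DM3 and -1.65 in DM2 and a difference of 4.18 (adjusted p = 1.11e-09). Des, desmin, averaged 2047 ± 36.4 CPM in DM3, 469 ± 59.8 CPM in DM2 and 863 ± 95.7 CPM at day 0 (SD, n = 2 each), which gives log2 fold changes over day 0 of 1.25 in DM3 and -0.88 in DM2 and a difference of 2.13 (adjusted p = 3.46e-08). Nr4a1, a nuclear receptor induced by cAMP, averaged 38.2 ± 1.13 CPM in DM3, 8.64 ± 0.338 CPM in DM2 and 12.4 ± 0.893 CPM at day 0 (SD, n = 2 each), which gives log2 fold changes over day 0 of 1.62 in DM3 and -0.53 in DM2 and a difference of 2.14 (adjusted p = 9.29e-08). Txnip, a brake on glucose uptake, averaged 465 ± 0.743 CPM in DM3, 1.30 ± 0.139 CPM in DM2 and 65.8 ± 7.93 CPM at day 0 (SD, n = 2 each), which gives log2 fold changes over day 0 of 2.82 in DM3 and -5.65 in DM2 and a difference of 8.48 (adjusted p = 9.33e-11). In all of these genes both DM3 libraries were above both libraries of the other medium, which the rule itself favours.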

How the results depend on the processing

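The 9428 calls of DM3 at day 7 against day 0 became 9445 with RLE size factors, 9678 with library totals alone, 9276 with no low-count filter, 9020 with DESeq2 and 9479 with only the 4 libraries fitted. With the replicate number as a block there were 9400 calls. The numbers do not pair DM3 at day 7 with day 0, since the replicate differences of these 2 groups correlated at 0.041 over 10632 genes. Those of day 0 correlated at 0.843 with those of DM1 at day 2 and at -0.744 with those of DM3 at day 2. A block on the number cannot take up a difference that turns its sign between groups, and the source of that difference was not tested. Leaving out 1 library of the comparison gave between 8211 and 8384 calls, and leaving out the 3 libraries of low pseudogene share, a choice made after seeing the data, gave 8924 calls, 8313 of them shared in direction. Leaving out a library gave between 5906 and 6571 calls against DM1 (7622 with all, 7561 with the replicate block), between 7127 and 7208 against DM2 (8420 with all, 8390 with the block) and between 5804 and 8222 against DM3 at day 2 (7653 with all, 7575 with the block). Genes higher than in each other group numbered 1103, between 786 and 1105 without 1 library, 1095 with the block, and 731 with library totals alone, where those lower than in each numbered 1514. Of 3390 alternative values of named genes 3285 kept their direction and call, 100 of 25 genes lost the call, 5 gained one and 0 reversed. Cdkn1c and Dpt lost it under 7 alternatives each, and Chrna1, Nr4a3, Hspa5 and mt-Co2 under 6 each, and the cause was not tested. A group left with 1 library was assumed to vary like the others. With 2 libraries a group the fold of a gene near 0 at day 0 rests on few counts, and its size is the least certain value here.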

Other observations

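Genes outside the lists changed as well. Tpt1, the translationally controlled tumour protein, had 5188 and 4678 CPM in DM3, against 2507 and 1874 CPM at day 0, and the elongation factor Eef2 had 7773 and 7988 CPM in DM3, against 5456 and 4859 CPM at day 0, both among the 10 largest gains in CPM. Among the 10 largest losses were osteopontin (Spp1), with 265 and 266 CPM in DM3, against 1642 and 2168 CPM at day 0, galectin 1 (Lgals1), with 1885 and 1807 CPM in DM3, against 3352 and 2963 CPM at day 0, and the tubulin Tubb5, with 615 and 633 CPM in DM3, against 1971 and 1742 CPM at day 0. Prl2c3, a gene of the proliferin family that growing cells express, had 3.89 and 4.27 CPM in DM3, against 222 and 199.9 CPM at day 0, and since its family holds near-identical copies, reads may have been shared out among them.

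Amigo2 and Spint1 were at 0 counts in both DM3 libraries and at least 4.26-fold and 6.5-fold lower than at day 0. Ripply1, a developmental repressor, had 4.44 and 3.33 CPM in DM3, 0.143 and 0.0417 in DM1, 0.226 and 0.0778 in DM2 and 0 and 0.0341 at day 0.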
